A study of Mus musculus with 8 samples.

Results

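Long intergenic noncoding RNAs (lincRNAs) were examined in naive CD4 T cells of the mouse. The 187 genes described here are the rows that the deposited normalized table types as lincRNA and that had a mean of at least 20 normalized counts over the 8 libraries. They were 187 of the 631 lincRNA genes and of the 16418 genes of all types in that table. They were thus selected on their mean level, whose values are a description, while the difference between the groups was not used to choose them.

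All libraries came from mice of 1 genotype, with both Satb1 alleles floxed and 1 copy of CD4-CreERT2, a Cre recombinase under CD4 control that tamoxifen switches on. The 4 KO libraries (Sample_2907_KO, Sample_2908_KO, Sample_2909_KO and Sample_2910_KO) came from tamoxifen-treated mice and the 4 WT libraries (Sample_2911_WT, Sample_2913_WT, Sample_2914_WT and Sample_2915_WT) from untreated mice, so both groups carry the floxed alleles and the Cre, and tamoxifen itself cannot be told apart from the deletion. Ages of the mice are not given. Cells of spleen and lymph node were sorted as CD3+ CD4+ CD25- CD62L+ with CD44 low or absent, and their poly(A) RNA was sequenced. Values per library are given throughout in that order, KO before WT, as CPM (read counts relative to library size, scaled by the TMM method), and each log2 fold change is KO over WT with its standard error (SE).

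A lincRNA is a long transcript annotated as noncoding, from a gene classed as lying apart from coding genes. Some, such as Malat1 and Neat1, stay in the nucleus, where Malat1 gathers at splicing speckles and Neat1 is the scaffold of paraspeckles. Others carry small nucleolar RNAs (snoRNAs) or microRNAs in their transcripts, and many lincRNA genes of lymphocytes have no established role. SATB1 binds DNA, helps fold chromatin and is plentiful in T cells.

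The start regions of 6 changed lincRNAs are shown because these RNAs had the largest rises (the first 3) and the largest falls (the last 3) among those whose RefSeq start lay within 50 bases of the GENCODE M21 start. Each window runs 5′ to 3′ from 250 bases before to 50 after the RefSeq start (build GRCm38.p6), and capitals mark motif matches.
Gm16702: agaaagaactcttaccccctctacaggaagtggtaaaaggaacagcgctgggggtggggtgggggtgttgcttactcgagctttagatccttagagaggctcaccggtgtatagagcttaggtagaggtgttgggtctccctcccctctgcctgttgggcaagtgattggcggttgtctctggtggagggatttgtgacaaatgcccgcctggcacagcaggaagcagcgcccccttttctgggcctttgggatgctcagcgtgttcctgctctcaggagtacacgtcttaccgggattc
Gm30948: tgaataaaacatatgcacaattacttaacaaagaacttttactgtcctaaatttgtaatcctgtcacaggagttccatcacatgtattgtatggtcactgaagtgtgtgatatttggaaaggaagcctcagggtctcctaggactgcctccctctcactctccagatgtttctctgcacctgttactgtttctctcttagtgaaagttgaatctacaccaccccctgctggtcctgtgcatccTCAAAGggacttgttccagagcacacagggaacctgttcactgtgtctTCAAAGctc
Gm19951: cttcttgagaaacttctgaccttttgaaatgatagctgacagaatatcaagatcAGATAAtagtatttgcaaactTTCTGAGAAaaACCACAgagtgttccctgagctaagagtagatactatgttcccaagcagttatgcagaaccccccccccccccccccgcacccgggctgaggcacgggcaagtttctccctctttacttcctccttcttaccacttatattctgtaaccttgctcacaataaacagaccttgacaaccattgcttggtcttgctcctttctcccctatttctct
Gm14321: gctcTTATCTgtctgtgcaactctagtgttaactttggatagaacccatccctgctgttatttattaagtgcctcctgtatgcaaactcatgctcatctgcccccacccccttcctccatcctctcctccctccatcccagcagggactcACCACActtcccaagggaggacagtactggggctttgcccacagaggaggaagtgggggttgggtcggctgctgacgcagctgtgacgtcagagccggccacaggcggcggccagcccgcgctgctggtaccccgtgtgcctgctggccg
Gm32633: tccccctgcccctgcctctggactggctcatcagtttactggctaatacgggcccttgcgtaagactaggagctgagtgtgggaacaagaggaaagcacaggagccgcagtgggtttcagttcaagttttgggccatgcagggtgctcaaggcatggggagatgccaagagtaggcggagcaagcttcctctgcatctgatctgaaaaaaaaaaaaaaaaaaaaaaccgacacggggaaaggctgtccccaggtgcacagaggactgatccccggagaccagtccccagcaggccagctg
A630023P12Rik: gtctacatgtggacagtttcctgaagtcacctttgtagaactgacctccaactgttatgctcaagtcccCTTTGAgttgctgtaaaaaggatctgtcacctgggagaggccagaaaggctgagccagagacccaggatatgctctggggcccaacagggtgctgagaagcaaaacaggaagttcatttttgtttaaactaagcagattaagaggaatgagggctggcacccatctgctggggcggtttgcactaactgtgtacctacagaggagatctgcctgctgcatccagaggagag
The windows lie at chr17:8389419-8389718 on the minus strand, chr12:115262401-115262700 on the plus strand, chr12:99642846-99643145 on the plus strand, chr2:167777241-167777540 on the plus strand, chr7:64001654-64001953 on the plus strand and chr5:110514673-110514972 on the plus strand. Of the 187 lincRNAs, 87 matched a RefSeq window by symbol and 50 of these had one within 50 bases of the M21 start.

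In those windows 7 short motifs were searched on both strands, and a match is a description of letters. The Gm19951 window held an interferon-gamma activated site (GAS, TTC and GAA 3 bases apart, present in 8.30% of all 32851 windows), a RUNX motif (TGTGGT, 16.8%) and a GATA motif (AGATAA, 11.2%). The Gm14321 window held a RUNX and a GATA motif, the Gm30948 window held 2 TCF/LEF motifs (CTTTGA, 16.0%) and the A630023P12Rik window held 1. No match was found in the windows of Gm16702 and Gm32633. The interferon-stimulated response element (GAAA and GAAA 2 bases apart, 3.44% of all windows) and the AP-1 motif (TGANTCA, 7.81%) were in none of the 6. The ETS motif (CGGAAG), also in none of the 6, was in 19 of the 50 lincRNA windows (38%) and in 16.9% of all windows. Of the 50, 9 held a RUNX motif (18%), 6 a GATA motif (12%) and 5 a TCF/LEF motif (10%). AP-1 was in 3 (6%), GAS in 2 (4%) and the interferon-stimulated response element in 1 (2%). Median GC content was 55.7% in lincRNA windows and 52.7% in all windows, and its part in the ETS share was not tested. The GAS letters read the same on both strands, and the searched motifs shared no matched base in these windows.

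The label was checked against the GENCODE M21 annotation. Of the 187 genes, 186 had an entry and 172 were typed lincRNA there, while 8 were typed antisense, 3 bidirectional promoter and 3 processed transcript. Their exons came to a median of 2493 bases, and 36 had a single exon block. Although the class is called intergenic, 51 overlapped the body of a protein-coding gene and 74 shared exon bases with another gene, 37 of them with a coding one. The library kit does not keep strand, so reads over shared bases cannot be assigned to either gene. Of the lincRNAs outside coding genes, 65 lay within 5000 bases of one, and the median distance was 5193 bases.

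Libraries held 7544075 to 9253620 counted reads in KO and 5227758 to 21998174 in WT. The targeted gene Satb1 (chr17:51736187-51833290, minus strand) had 855, 1032, 839.6 and 913 CPM in KO and 987, 1015, 1046 and 1083 CPM in WT, with overlapping groups and a log2 fold change of -0.18 (SE 0.059, edgeR adjusted p = 0.0582); without Sample_2908_KO it was -0.25 and passed (adjusted p = 0.00152). The sources used here do not name the deleted exons, and reads of the whole gene were counted. KO thus names the treated group and not a measured loss of Satb1 RNA as a whole. Transcripts annotated inside Satb1 on its strand did fall. Means in KO and WT were 1.14 and 11.3 CPM for E430014B02Rik, 1.26 and 8.64 for C230085N15Rik, and 0.953 and 9.42 for Gm36931. Whether they mark the deleted part was not tested. The T cell markers were present, with 3775 to 4198 CPM summed over 7 T cell genes in KO and 4017 to 4210 in WT (Cd4 lower; adjusted p 0.0859 to 0.115 without Sample_2907_KO, Sample_2911_WT or Sample_2913_WT), while the B cell genes ranged from under 10 reads over all libraries (Ms4a1, Pax5 and Ebf1) to 84 reads in KO and 106 in WT (Cd79a). Regulatory T cell markers summed to 110 to 192 CPM in KO and 52.5 to 59.9 in WT, with 2 of 5 higher (Foxp3 and Tnfrsf18, the latter not without Sample_2909_KO, adjusted p = 0.0696). Foxp3 alone averaged 93.4 CPM in KO and 8.41 in WT, and Il2ra, Ikzf2 and Ctla4 did not pass. Type I interferon response genes summed to 3240 to 3824 CPM in KO and 2101 to 2447 in WT, with 26 of 30 higher. Natural killer cell markers summed to 15.8 to 19.8 CPM in KO and 22.1 to 28.6 in WT (Klrd1 lower; adjusted p = 0.0595 without Sample_2915_WT), CD8 T cell markers to 9.65 to 14.7 and 13.2 to 18.2 CPM, and platelet and erythroid markers to at most 0.756 CPM. Of 8 sex-linked genes 0 were called by edgeR, DESeq2, limma-voom or limma-trend, and 2 had an unadjusted edgeR p under 0.05. Myeloid markers were highest in Sample_2911_WT (40.1 CPM) and lowest in Sample_2914_WT (9.67 CPM).

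The lincRNAs spanned mean normalized counts from 20.1 to 15729, with a median of 58.6; 65 reached 100 and 6 reached 1000. At the edge of the choice, Gm43672 (20.4), Gm33682 (20.2) and Gm44037 (20.1) were just inside, and Gm26890 (19.4), Gm20045 (19.4) and Gm44053 (19.3) just outside. In total 174 reached 20 in both groups, 4 in KO alone and 9 in WT alone. Summed over all 187, the level was 5228 ± 55.4 CPM in KO against 5649 ± 283 in WT (SD, n = 4 each), and KO ranged from 5184 to 5300 and WT from 5225 to 5806. Sample_2914_WT alone of the WT libraries fell within the KO range. They took 0.513% to 0.525% of all reads in KO and 0.533% to 0.581% in WT. Without Malat1 the sums were 3659 ± 197 CPM in KO against 3655 ± 175 in WT (SD, n = 4 each), a difference smaller than either SD.

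Malat1 (chr19:5795690-5802672, minus strand, 1 exon) was the most abundant lincRNA. Its KO libraries had 1425, 1357, 1714 and 1782 CPM and its WT libraries 2227, 2105, 1734 and 1911 CPM. The 2 lowest values were both KO, yet Sample_2910_KO lay above Sample_2914_WT, so the groups overlapped. Its share of the summed CPM of the 187 was 25.9% to 33.6% in KO and 33.0% to 38.6% in WT. The log2 fold change was -0.34 (SE 0.112) and did not pass (edgeR adjusted p = 0.137). It passed without Sample_2910_KO (adjusted p = 0.0385) or without Sample_2914_WT (0.0485), with limma-voom (0.00957), with limma-trend (0.0140), without the count filter (1.33e-07) and with a non-robust edgeR fit (0.0195), and stayed above the threshold in the other 12 alternatives.

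Neat1 (chr19:5824708-5845478, minus strand), its neighbour on the chromosome, had 428, 424, 424 and 387 CPM in KO and 408, 426, 392 and 458 CPM in WT. The ranges of the 2 groups overlapped widely, and the log2 fold change was -0.02 (SE 0.057, edgeR adjusted p = 0.913). Deviations of Malat1 and Neat1 from their group means had a Pearson r of -0.22 over the 8 libraries, a description with no test. By the same measure the genes most like Malat1 were Smarcc2 (0.97), Tmem184b (0.96) and Arhgap45 (0.96), and those most like Neat1 were 5930430L01Rik (0.99), Piwil2 (0.98) and 9330175E14Rik (0.98). Of 18 genes for paraspeckle and Malat1 partner proteins, 0 were called by edgeR, DESeq2, limma-voom or limma-trend, and 3 had an unadjusted edgeR p under 0.05.

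The other RNAs of the top 10 by mean were AC140209.1, 1700020I14Rik, AI504432, AU020206, A630023P12Rik, Mirt1, AW112010 and Gm37494. AC140209.1 averaged 325 ± 41.8 CPM in KO against 332 ± 22.2 in WT (SD, n = 4 each). For 1700020I14Rik the means were 230.3 ± 20.9 and 211 ± 17.6 CPM, and for AI504432 150.2 ± 18.4 and 143 ± 11.9 CPM. Neither these nor Gm37494 passed the test, with log2 fold changes between -0.09 and 0.13. AU020206 had 154, 147, 127 and 144 CPM in KO and 134, 128, 119 and 124 CPM in WT, with a log2 fold change of 0.18 that did not pass (SE 0.064, edgeR adjusted p = 0.095), though it passed without Sample_2909_KO (adjusted p = 0.0181). Per kilobase of exon the order differed. Malat1 stayed first (255 CPM per kilobase), AC140209.1 came next (159), then Mir142hg (145, over 269 exon bases) and AW112010 (91.1), while Neat1, with the longest exon sequence of the top 10, was 12th (20.1). Exon length here joins all annotated transcripts of a gene. Which of those transcripts the poly(A) libraries captured was not tested, so this order depends on the annotated length.

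**Figure D1:**
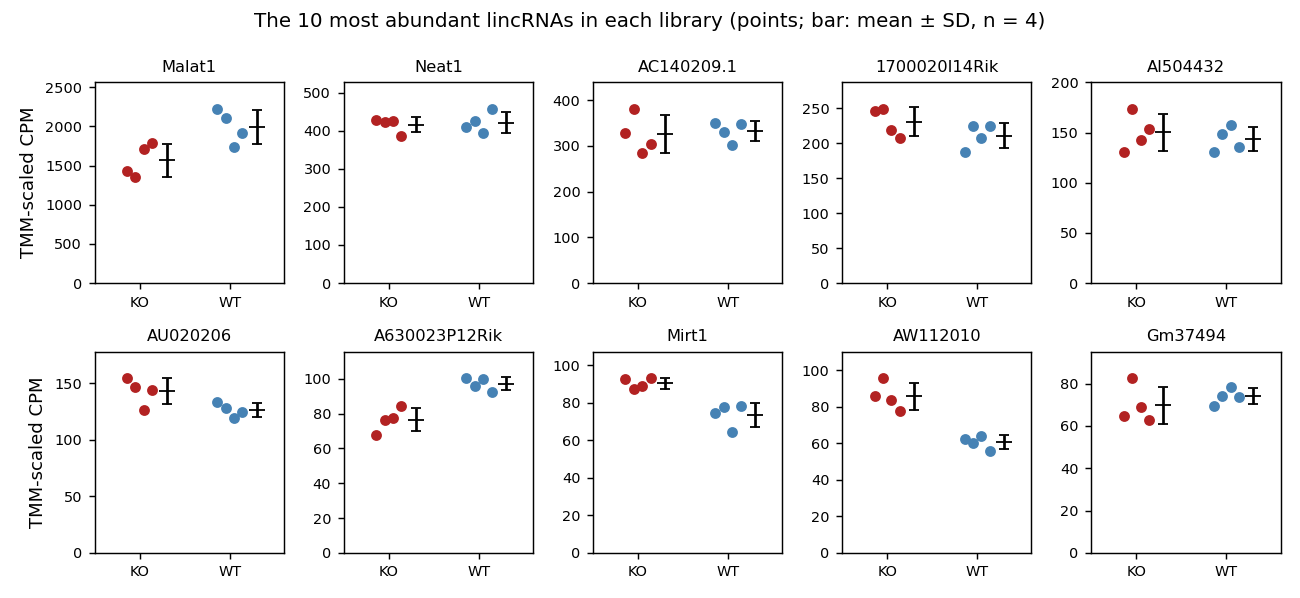
TMM-scaled CPM (vertical axes, each starting at 0) of the 10 most abundant lincRNAs in the 4 KO (red) and 4 WT (blue) libraries, with bars for mean ± SD. Malat1 overlaps between the groups, while A630023P12Rik, Mirt1 and AW112010 do not.

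Of the 187 lincRNAs, all of which passed the count filter, 18 changed at an edgeR adjusted p under 0.05. Of all 11772 genes tested, 6.39% changed, against 9.63% of the lincRNAs. In KO, 8 were higher (4.28%, beside 3.98% of all genes) and 10 lower (5.35%, beside 2.41%). Of all genes with a mean of at least 20, 4.32% were higher and 2.56% lower. Among antisense RNAs of that level 0.592% were higher and 4.14% lower, and among processed transcripts 2.59% and 5.17%. Of the 174 that reached 20 in both groups 15 changed (8.62%), without Gm16702, Gm30948 and Gm26685, which were chosen through the group where they were high. The 5 with a change of at least 2-fold were Gm16702, Gm30948 and Gm19951, which rose, and Gm14321 and Gm26685, which fell, and 9 of the 18 changed less than 1.5-fold. Over the 187 the median log2 fold change was -0.09, and 116 (62.0%) were negative, beside a median of -0.00047 and 50.1% negative over all genes. Protein-coding genes with a mean of at least 20 had a median of 0.0041 and 48.9% negative. Antisense RNAs of that level had a median of -0.15 and 66.9% negative, and processed transcripts -0.10 and 72.4%. Per library, the median deviation of the 187 from their mean log2 CPM was 0.0098, 0.024, -0.084 and -0.076 in KO. In WT it was -0.016, 0.080, 0.00026 and 0.156, so the groups overlapped. With single samples left out, the median log2 fold change of the 187 ranged from -0.11 (without Sample_2911_WT) to -0.046 (without Sample_2909_KO).

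The number of lower lincRNAs moved with single libraries, from 10 to 6 without Sample_2907_KO, 5 without Sample_2913_WT and 3 without Sample_2915_WT. The share of all genes called fell in the same fits, from 6.39% to 4.72%, 4.78% and 4.76%. Sample_2911_WT and Sample_2914_WT had the highest and lowest myeloid marker level, and also the fewest (5227758) and most (21998174) counted reads. Without both, 6 lincRNAs were higher and 5 lower, and 3.94% of all genes were called. Myeloid level and depth cannot be told apart here. Calls were more frequent among abundant lincRNAs, with 12 among the 63 of highest mean, 3 among the middle 61 and 3 among the 63 of lowest mean. The median SE was 0.116, 0.206 and 0.298 in these groups. Libraries of the groups did not overlap for 19 lincRNAs (10.2%, beside 11.1% of all genes), 8 higher (beside 6.23% of all genes) and 11 lower (beside 4.86%), and 16 of these were called. The uncalled 3 were 1810058I24Rik (-0.25 log2, adjusted p = 0.119), Snhg12 and Gm44226 (0.34 log2, adjusted p = 0.187).

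**Figure D2:**
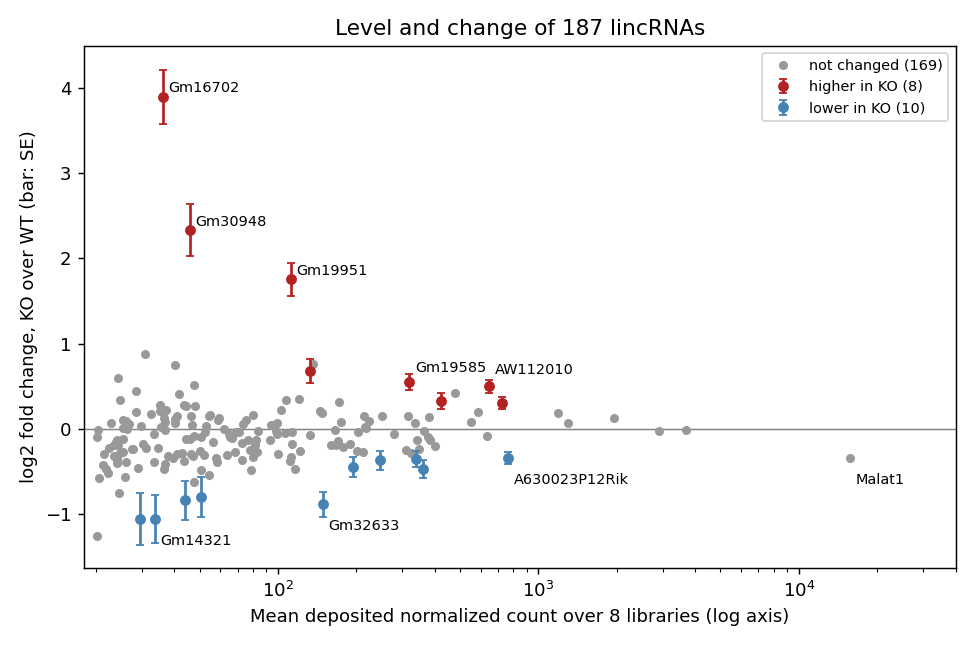
Mean deposited normalized count over the 8 libraries (horizontal log axis) against log2 fold change, KO over WT (vertical axis), for 187 lincRNAs. The 8 higher (red) and 10 lower (blue) carry SE bars; Gm16702 stands highest at 3.89, and Malat1 lies farthest right at -0.34.

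Gm16702 (ENSMUSG00000097796.1, chr17:8379045-8389468, minus strand, 3 exon blocks) rose most. It was among the 187 only through KO (mean normalized count 68.0, beside 4.31 in WT), the group where it was high, so a difference was built into its choice. Its KO libraries had 9.28, 8.22, 6.38 and 6.96 CPM, from 76, 75, 59 and 52 reads. The WT libraries had 0.579, 0.360, 0.579 and 0.433 CPM, from 3, 2, 13 and 5 reads. Every KO library lay more than 10-fold above every WT library, and the log2 fold change was 3.89 (SE 0.317, 14.9-fold, edgeR adjusted p = 2.86e-10). Its gene overlaps T2 on the opposite strand and shares exon bases with T2 and AC164431.1, so the strand of these reads is not known. Of the coding genes around it, Sft2d1 (0.27 log2, adjusted p = 0.148), Mpc1 (0.16, adjusted p = 0.665), a subunit of the mitochondrial pyruvate carrier, and Fgfr1op (0.06, adjusted p = 0.819) did not pass.

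Gm30948 (ENSMUSG00000103168.1, chr12:115262684-115287908, plus strand) lies among the variable segments of the immunoglobulin heavy chain locus. It too reached a mean of 20 only in KO (77.4, beside 14.1 in WT). It had 5.25, 14.6, 6.81 and 8.44 CPM in KO and 1.54, 0.901, 2.14 and 1.82 CPM in WT, and Sample_2908_KO stood above the other KO libraries. The groups did not overlap, and the log2 fold change was 2.33 (SE 0.307, 5.03-fold, edgeR adjusted p = 9.12e-06). The B cell marker list had 3.13 to 5.62 CPM summed in KO and 2.76 to 4.33 in WT, with Ms4a1, Pax5 and Ebf1 among its genes under 10 reads over the 8 libraries. Cd79a (84 reads in KO and 106 in WT, log2 fold change -0.01) and Cd79b (49 and 37 reads, 0.77, edgeR adjusted p = 0.404), the tested markers, were called by none of the 4 tools and had no unadjusted edgeR p under 0.05. The part of B cell RNA in this rise was not tested. The nearest protein-coding gene, Zfp386, was 759816 bases away and did not pass (-0.22 log2, adjusted p = 0.101; without Sample_2911_WT it passed at -0.28, adjusted p = 0.0298).

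Gm19951 (ENSMUSG00000113136.1, chr12:99643093-99647221, plus strand, 2 exon blocks), whose start window holds the GAS letters shown above, had 22.2, 25.2, 15.9 and 15.4 CPM in KO and 4.44, 4.87, 5.26 and 8.14 CPM in WT. The lowest KO library was above the highest WT library, Sample_2915_WT, and the log2 fold change was 1.75 (SE 0.193, 3.37-fold, edgeR adjusted p = 7.16e-07). It lies between Foxn3, a forkhead transcription repressor (0.16 log2, adjusted p = 0.153), and Efcab11, which had too few reads to be tested.

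Gm19585 (ENSMUSG00000100150.1, chr17:51986415-52163976, plus strand) starts 153125 bases from Satb1 and is transcribed away from it. Its libraries had 40.8, 44.7, 42.4 and 45.1 CPM in KO and 29.1, 25.8, 31.0 and 30.8 CPM in WT, with no overlap. The log2 fold change was 0.55 (SE 0.092, edgeR adjusted p = 0.000121). Transcripts annotated inside Satb1 moved the other way: E430014B02Rik had 1.14 ± 0.711 CPM in KO against 11.3 ± 1.71 in WT (SD, n = 4 each; log2 fold change -3.33), and C230085N15Rik (-2.80) and Gm36931 (-3.30) fell as well. Between Satb1 and Gm19585, Gm37593 (0.42 log2, adjusted p = 0.105), Gm37266 (0.16) and Gm37176 (0.0034) did not pass.

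AW112010 (ENSMUSG00000075010.4, chr19:11047612-11055808, minus strand), an RNA known to be induced in activated immune cells, had 86.0, 95.6, 84.0 and 77.5 CPM in KO and 62.5, 60.4, 64.2 and 55.8 CPM in WT. All KO libraries lay above all WT libraries, with a log2 fold change of 0.50 (SE 0.075, 1.41-fold, edgeR adjusted p = 2.74e-05). Its nearest coding gene, Ms4a8a, had at most 8 reads over a group and was not tested. For 1810006J02Rik, 18.4 ± 0.821 CPM in KO stood against 11.8 ± 1.91 in WT (SD, n = 4 each; log2 fold change 0.68, SE 0.139, edgeR adjusted p = 0.00172), again with no overlap. Its nearest coding gene Pam, a peptide-amidating enzyme, did not pass (0.26 log2, adjusted p = 0.283).

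Mirt1 (chr19:53443230-53464796, minus strand) had 92.7, 87.2, 88.9 and 93.1 CPM in KO and 74.3, 77.5, 64.3 and 78.3 CPM in WT. The groups did not overlap and the log2 fold change was 0.31 (SE 0.072, edgeR adjusted p = 0.00611), a call lost without Sample_2914_WT (0.23, adjusted p = 0.0641). Mirt1 was at 0.21 without Sample_2911_WT and Sample_2914_WT together (edgeR adjusted p = 0.191). It shares exon bases with the lincRNA 4833407H14Rik, which did not pass (0.22 log2, adjusted p = 0.524). Of the 8 that rose, 9330175E14Rik had the highest adjusted p, with 54.7, 57.7, 54.9 and 45.9 CPM in KO and 40.1, 43.1, 37.0 and 50.1 CPM in WT. Its groups overlapped, since Sample_2910_KO lay below Sample_2915_WT, and its log2 fold change of 0.33 (SE 0.095, edgeR adjusted p = 0.0306) missed the threshold without any 1 of Sample_2907_KO, Sample_2908_KO and Sample_2909_KO and Sample_2911_WT, Sample_2913_WT and Sample_2914_WT (adjusted p 0.0639 to 0.188) and with DESeq2 (0.0528). 9330175E14Rik also missed it with limma-voom (0.0738), limma-trend (0.0525), a non-robust edgeR fit (0.0544) and after thinning reads to the smallest library (0.201). Its edgeR adjusted p was 0.473 without Sample_2911_WT and Sample_2914_WT together. It shares exon bases with Nlrc5, the activator of MHC class I genes, which rose too (0.21 log2, adjusted p = 0.00958; 0.0518 without Sample_2915_WT). The interferon list, and the regulatory T cell list mainly through Foxp3, were higher in the same KO libraries as these 8 RNAs. The part of either list in these rises was not tested.

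**Figure D3:**
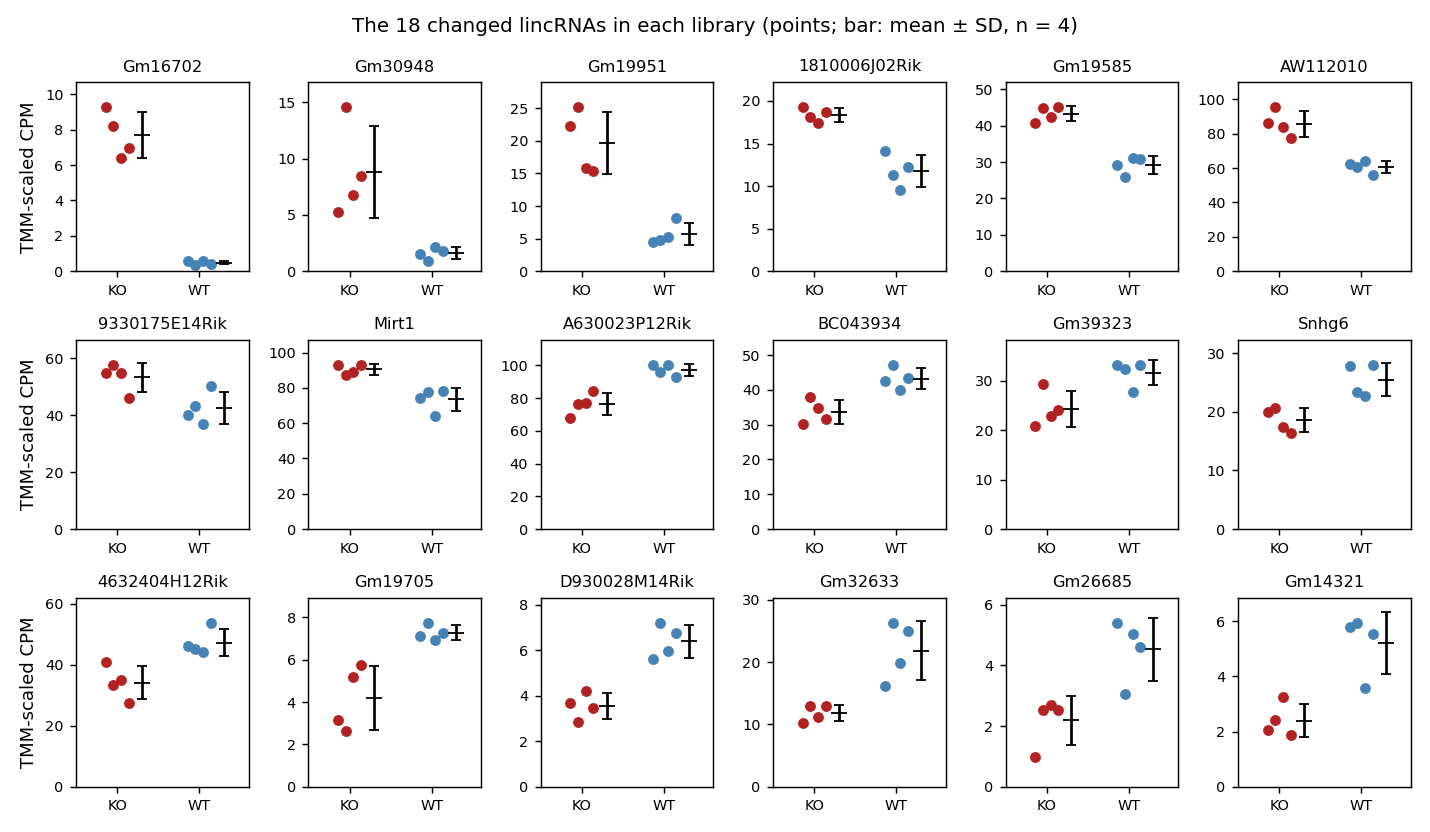
TMM-scaled CPM (vertical axes, each starting at 0) of the 18 changed lincRNAs in 4 KO (red) and 4 WT (blue) libraries, from the largest rise to the largest fall, with bars for mean ± SD. The groups are apart in 16 panels and overlap for 9330175E14Rik and Gm39323.

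Gm14321 (ENSMUSG00000084797.1, chr2:167777467-167782569, plus strand) fell most. It had 2.08, 2.41, 3.24 and 1.87 CPM in KO, from 14 to 30 reads, and 5.79, 5.95, 3.57 and 5.54 CPM in WT. The groups came closest at Sample_2909_KO and Sample_2914_WT without overlap, and the log2 fold change was -1.06 (SE 0.279, 2.08-fold lower, edgeR adjusted p = 0.0164). The call was lost without Sample_2907_KO, Sample_2910_KO, Sample_2913_WT or Sample_2915_WT (adjusted p 0.0536 to 0.0611). It shares exon bases on the same strand with the lincRNA 9230111E07Rik, which did not pass (-0.77 log2, adjusted p = 0.292), and its nearest coding gene Cebpb, a basic leucine zipper transcription factor, did not pass (-0.62, adjusted p = 0.544).

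Gm26685 (chr1:164503309-164514882, plus strand), whose mean normalized count reached 20 only in WT (39.9, beside 19.3 in KO), had 0.977, 2.52, 2.70 and 2.54 CPM in KO and 5.40, 3.06, 5.04 and 4.59 CPM in WT. Sample_2907_KO, with 8 reads, stood far below the other KO libraries. Its log2 fold change was -1.06 (SE 0.299, edgeR adjusted p = 0.0271), and -0.82 without Sample_2907_KO (adjusted p = 0.122). The call was also lost without Sample_2911_WT, Sample_2914_WT or Sample_2915_WT (0.0603 to 0.112). Limma-trend (0.0689) and edgeR without Sample_2911_WT and Sample_2914_WT together (0.310) did not call Gm26685 either. Atp1b1, its nearest coding gene and a subunit of the sodium-potassium pump, fell as well (-0.29 log2, adjusted p = 0.00508).

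Gm32633 (ENSMUSG00000108393.1, chr7:64001885-64020959, plus strand) had 10.3, 12.9, 11.2 and 13.0 CPM in KO and 16.2, 26.3, 19.8 and 25.0 CPM in WT. The highest KO library was below the lowest WT library, Sample_2911_WT, with a log2 fold change of -0.88 (SE 0.145, 1.84-fold lower, edgeR adjusted p = 9.80e-05). It starts 62970 bases from Klf13, a zinc finger transcription factor of lymphocytes, which did not pass (-0.07 log2, adjusted p = 0.515). A630023P12Rik (ENSMUSG00000048215.14, chr5:110514923-110525980, plus strand), the most abundant lincRNA that changed, had 68.0, 76.5, 77.3 and 84.2 CPM in KO and 100.4, 96.1, 100.1 and 92.6 CPM in WT. Each KO library was below each WT library, and the log2 fold change was -0.35 (SE 0.070, edgeR adjusted p = 0.00132). Without Sample_2911_WT and Sample_2914_WT together, A630023P12Rik missed the threshold (edgeR adjusted p = 0.0614). Its nearest coding gene, Galnt9, did not pass (-0.38 log2, adjusted p = 0.472).

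The single-exon RNA 4632404H12Rik (chr3:89767511-89773240, minus strand), which starts 376 bases from Ube2q1, had 34.1 ± 5.54 CPM in KO against 47.2 ± 4.42 in WT (SD, n = 4 each; log2 fold change -0.47, SE 0.103, edgeR adjusted p = 0.00341). Ube2q1, a ubiquitin-conjugating enzyme, did not pass (-0.02 log2, adjusted p = 0.924). BC043934 had 30.3, 37.8, 34.9 and 31.7 CPM in KO and 42.5, 47.2, 39.9 and 43.5 CPM in WT, with a log2 fold change of -0.35 (SE 0.094, edgeR adjusted p = 0.019) that missed the threshold without Sample_2907_KO, Sample_2910_KO, Sample_2913_WT or Sample_2915_WT (0.0532 to 0.0909). Its groups did not overlap, and its nearest coding gene, Rnf7, did not pass (0.18 log2, adjusted p = 0.484).

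Gm39323 starts 2325 bases from Thy1, the gene of a T cell surface glycoprotein. It had 20.8, 29.4, 22.8 and 24.1 CPM in KO and 33.2, 32.4, 27.8 and 33.1 CPM in WT, overlapping between Sample_2908_KO and Sample_2914_WT. The log2 fold change was -0.37 (SE 0.111, edgeR adjusted p = 0.0431). It missed the threshold without any 1 of Sample_2907_KO, Sample_2909_KO and Sample_2910_KO and Sample_2911_WT, Sample_2913_WT and Sample_2915_WT (adjusted p 0.0865 to 0.178) and with DESeq2 (0.0642). The same held with a non-robust edgeR fit (0.0603), after thinning to the smallest library (0.224) and without Sample_2911_WT and Sample_2914_WT together (0.0790). Thy1 did not pass (-0.10 log2, adjusted p = 0.324).

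Gm19705 had 3.18, 2.63, 5.19 and 5.76 CPM in KO and 7.14, 7.75, 6.95 and 7.27 CPM in WT. The KO values were spread and the WT values close together, and the log2 fold change was -0.80 (SE 0.233, edgeR adjusted p = 0.0333), lost without Sample_2907_KO, Sample_2908_KO, Sample_2913_WT, Sample_2914_WT or Sample_2915_WT (0.0722 to 0.125). The call was also lost with a non-robust edgeR fit (0.0569), after thinning (0.151) and without Sample_2911_WT and Sample_2914_WT together (0.126). D930028M14Rik, inside the gene of the lymphoid transcription factor Pou2f2 on the opposite strand, had 3.66, 2.85, 4.21 and 3.48 CPM in KO and 5.60, 7.21, 5.97 and 6.75 CPM in WT. Its groups did not overlap, and its log2 fold change of -0.84 (SE 0.227, edgeR adjusted p = 0.0198) missed the threshold without Sample_2908_KO, Sample_2913_WT or Sample_2915_WT (0.0575 to 0.0642). After thinning, D930028M14Rik missed it too (0.0778). Neither Zfp281, nearest to Gm19705 (0.03 log2), nor Pou2f2 (-0.16) passed.

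Of the tested host genes of snoRNAs, 4 fell in KO and 0 rose, beside 2.41% of all genes lower and 3.98% higher. The members among the 187 were Snhg6, Snhg12, Snhg20 and Epb41l4aos. Snhg6 (chr1:9941959-9944118, minus strand) had 19.9, 20.7, 17.4 and 16.5 CPM in KO and 27.8, 23.4, 22.8 and 28.0 CPM in WT, with no overlap and a log2 fold change of -0.44 (SE 0.118, edgeR adjusted p = 0.0175). That call was lost without Sample_2909_KO, Sample_2910_KO or Sample_2915_WT (0.0507 to 0.0881), and without Sample_2911_WT and Sample_2914_WT together (0.0641). Snhg6 shares exon bases with its nearest coding gene, Mcmdc2, on the opposite strand. Mcmdc2 averaged 0.294 CPM in KO and 0.790 in WT, from 10 and 40 reads, too few to be tested. Snhg12 had 31.1, 39.8, 38.9 and 34.7 CPM in KO and 41.1, 43.6, 43.6 and 41.4 CPM in WT. Its groups did not overlap, but its -0.23 (SE 0.092) did not pass (edgeR adjusted p = 0.153), and neither did Snhg20 (-0.04) or Epb41l4aos (-0.33).

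Of the wider list of 24 snoRNA hosts, 15 were tested, most of them typed otherwise than lincRNA. DESeq2, limma-voom and limma-trend also called 4 each. All 15 log2 fold changes were negative with edgeR under TMM, RLE or library-size scaling and with DESeq2. The median was -0.23 with edgeR under TMM, and 14 of 15 were negative with limma-trend. Snhg20 turned positive without Sample_2910_KO or Sample_2913_WT. Snhg17 (-0.01, SE 0.075) and Snhg15 (-0.02, SE 0.124) lay nearer 0 than Snhg20, and their signs without single libraries are not given here. Gas5, a growth-arrest RNA that hosts several snoRNAs, fell from 274 ± 6.94 CPM in WT to 213 ± 17.3 CPM in KO (SD, n = 4 each; log2 fold change -0.36, SE 0.058, edgeR adjusted p = 7.74e-05). Snhg1 (-0.34, adjusted p = 0.00251) and Snhg5 (-0.30, adjusted p = 0.0248; 0.0667 to 0.103 without Sample_2907_KO, Sample_2910_KO, Sample_2914_WT or Sample_2915_WT) fell too.

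**Figure D4:**
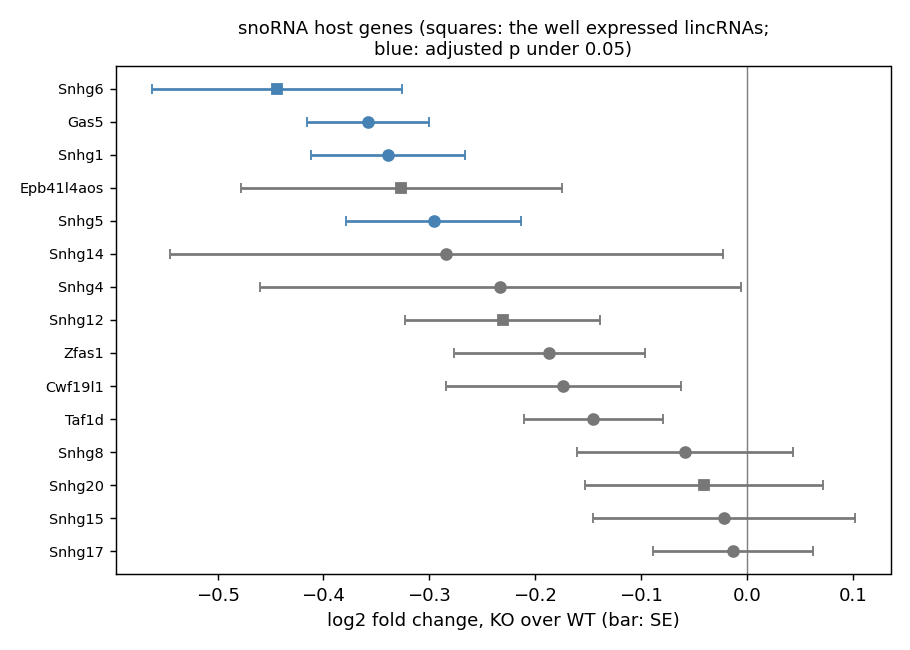
Log2 fold change, KO over WT (horizontal axis, bars show SE), of the 15 tested snoRNA host genes (vertical axis). All lie below 0; blue marks the 4 that passed the test and squares the 4 well expressed lincRNAs.

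Other lists of noncoding RNAs and their partners were examined too. Of 5 tested genes on the microRNA host list, Mirt1 alone rose and the others did not pass. Mirt1 is described as myocardial infarction associated transcript 1, and no annotated microRNA gene overlaps it, so its place on that list is doubtful. Mir142hg, the host of a microRNA of blood cells, had 36.8 ± 5.02 CPM in KO and 41.0 ± 9.15 in WT, and Mir17hg had 17.9 ± 3.68 and 15.7 ± 2.23 CPM (SD, n = 4 each), neither past the threshold. Of 10 nuclear or chromatin-associated noncoding RNAs, 0 passed with edgeR (4 at an unadjusted p under 0.05; 0 with DESeq2, 1 with limma-voom and 1 with limma-trend). Among these, Pvt1, next to the Myc gene, had a log2 fold change of -0.38, Jpx -0.23 and Ftx -0.08, both of the X inactivation centre, and 2900097C17Rik 0.14. Xist had too few reads to be tested. Of 8 tested immune RNAs, Gm19585 and AW112010 rose and A630023P12Rik fell. Of 18 tested RNA decay and processing genes only Drosha, the nuclear microRNA processing nuclease, was called, lower by edgeR and DESeq2 (-0.29 log2, adjusted p = 0.0218) and not by limma-voom or limma-trend, nor by edgeR without Sample_2909_KO, Sample_2911_WT or Sample_2914_WT (0.0712 to 0.0902). Of 13 genes for Xist partners, Rbm15 alone rose (0.26 log2, adjusted p = 0.0169; 0.0508 to 0.0651 without Sample_2907_KO, Sample_2911_WT, Sample_2913_WT or Sample_2915_WT).

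The nearest protein-coding gene was tested for 147 of the 187 lincRNAs. In 16 pairs the coding gene changed, beside 6.94% of protein-coding genes with a mean of at least 20. In 2 pairs both changed: 9330175E14Rik with Nlrc5 and Gm26685 with Atp1b1. Some coding genes, such as Setd1b and Thy1, were nearest to more than a single lincRNA and so entered repeatedly. The sign was shared in 84 pairs (57.1%). Across the 147 pairs, which share their libraries, log2 fold changes had a Pearson r of 0.25 and a Spearman rho of 0.26. LincRNAs overlapping their coding gene (40 pairs) had an r of 0.31, and those outside it (107 pairs) 0.25. These coefficients describe pairs of genes, which are not replicates.

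**Figure D5:**
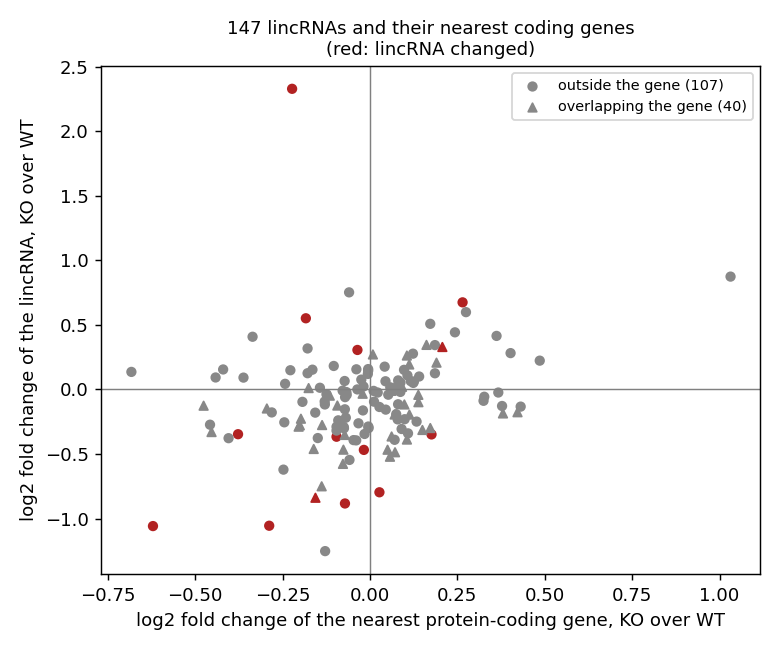
Log2 fold change of the nearest protein-coding gene (horizontal axis) and of the lincRNA (vertical axis), KO over WT, for 147 pairs; triangles mark lincRNAs that overlap the coding gene and red marks changed lincRNAs. Points spread over all 4 quadrants, with 84 pairs of shared sign.

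Position and structure were compared with the calls as a description. Of 74 lincRNAs sharing exon bases with another gene 5 changed (6.76%), and of 112 sharing none 13 changed (11.6%), beside 6.39% of all genes. Both lincRNAs with a single exon block that changed, 4632404H12Rik and BC043934, fell, out of 36, while 16 of 150 with several blocks changed, 8 in each direction.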

How the data were processed

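RNA-seq was done on 4 KO and 4 WT samples of sorted naive CD4 T cells, with an unstranded kit and single reads of 75 bp, per the labels' protocols. The submitters' processing notes list CASAVA 1.8.2, FastQC, R 3.5.3, DESeq2 1.22.2 and build mm10. The sources used here do not name the aligner, the counter or its strand setting. The deposited count table holds whole-number reads for 53465 gene IDs. The deposited normalized signal table holds 16418 genes, which have 10 or more reads in all, and its values are counts divided by a size factor of each sample (0.587 to 2.54). The test was edgeR 4.0.16 in R 4.3.3, with the robust quasi-likelihood test, TMM and filterByExpr, and Benjamini-Hochberg adjustment over all 11772 genes tested. The SE of a log2 fold change is its size divided by the root of the F statistic. Symbols and types came from the deposited table, positions from GENCODE M21 (GRCm38) and start windows from RefSeq.

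Whether each sample is a separate animal is not stated in the labels, and p-values here reflect only how these samples vary, which may be technical. Sequencing depth limits precision for the rarer lincRNAs. Alternatives were DESeq2 1.42.0, limma 3.58.1 (voom and trend), other scalings and filters, a non-robust fit, other rules for the members, and leaving out each sample; after the data were seen, thinning to the smallest library, leaving out Sample_2911_WT and Sample_2914_WT together, and keeping lincRNAs that share no exon base were added. The test was tried on simulated counts first. Of 20 lincRNAs changed at each size, it recovered 30% at 1.5-fold, 50% at 2-fold and 100% at 4-fold. Over all changed genes, these lincRNAs included, it recovered 64.2%, 79.1% and 100%. Of its calls, 3.6% were unchanged genes. A lincRNA that did not pass may thus have changed up to 2-fold.

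The members and the 16 gene and marker lists were chosen with earlier results of these data known. Named were the 10 lincRNAs of highest mean, all that passed the test, those in the lists, 3 on each side of the mean of 20, the nearest coding genes of those that changed, up to 4 changed genes of a list, and the 3 genes most like Malat1 and Neat1. Genes inside Satb1, between it and Gm19585, around Gm16702, Gm19951 and Mirt1, sharing exons with Gm14321, and lincRNAs without overlap between groups were named after their values were seen.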

Additional observations from a re-analysis of the deposited data

Results flagged for a closer look

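In 3 of the 68 groups of 4 libraries examined over the 34 named lincRNAs, 1 library stood apart from the other 3 by Dixon's criterion, and chance alone gives about 1 in 20 groups. Neat1 had its lowest KO value in Sample_2910_KO, at 387 CPM, where the others had 424 to 428 CPM. Gm39323 was lowest among WT in Sample_2914_WT, at 27.8 CPM, beside 32.4 to 33.2 CPM in the others. For Gm26685 the lowest KO library was Sample_2907_KO, at 0.977 CPM, beside 2.52 to 2.70 CPM.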

How the results depend on the processing

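None of the 18 changed lincRNAs changed direction in the 18 alternatives of the test. Some genes that did not pass, with main log2 fold changes from -0.23 (Jpx) to 0.14 (2900097C17Rik), changed sign without passing. When single samples were left out, Neat1 ranged from -0.0552 to 0.023, AC140209.1 from -0.12 to 0.028, AI504432 from -0.015 to 0.13, 2900097C17Rik from -0.0050 to 0.21, Snhg20 from -0.086 to 0.023, Ftx from -0.19 to 0.057, Ube2q1 from -0.044 to 0.019 and Zfp281 from -0.0057 to 0.047. Without Sample_2911_WT and Sample_2914_WT together, Ube2q1 was at 0.0033 and Zfp281 at -0.014. Jpx was at 0.042 with limma-trend and 0.0096 after thinning. The cause was not tested. Of the 18 changed lincRNAs, 8 passed in all of them and 10 lost the call at least once. The count of 18 ranged from 12 to 16 when single samples were left out, with 6 to 9 higher and 3 to 10 lower, and from 16 to 21 under other tools, scalings, filters and thinning. Without Sample_2911_WT and Sample_2914_WT together it was 11 (5 lower), and over all genes 481 (158 lower); fewer samples were tested. Among lincRNAs sharing no exon base, 13 changed, 5 of them higher. A mean of at least 10 gave 18, at least 50 gave 13, at least 20 in each group 15, and the M21 type 18. The summed level without Malat1 was 3659 CPM in KO and 3655 CPM in WT. No paired analysis was possible because the labels' sample numbers are not shared between KO and WT. Low counts limit the rarer lincRNAs. The median SE of the 187 was 0.211, beside 0.106 over all genes.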

Other observations

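Below the mean of 20, 89 of 444 lincRNAs had enough reads to be tested. With edgeR 0 of them changed, 6 had an unadjusted p under 0.05, DESeq2 called 2, limma-voom 0 and limma-trend 4. Their median log2 fold change was -0.08 and 54 of 89 (60.7%) were negative.

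Of the 133 lincRNAs that did not change and whose nearest protein-coding gene was tested, 14 had a nearest gene that changed. The share called was 6.94% over protein-coding genes with a mean of at least 20. Named after their values were seen, AC151730.2 lies 4917 bases from Fam111a. AC151730.2 had 3.17, 6.80, 3.35 and 4.55 CPM in KO and 3.28, 2.52, 2.09 and 2.25 CPM in WT, a log2 fold change of 0.87 (SE 0.298) that did not pass (edgeR adjusted p = 0.0802), while Fam111a rose by 1.03 on the log2 scale (adjusted p = 2.03e-11). Gm33682 had the widest log2 fold change among lincRNAs that did not pass, -1.25 (SE 0.458, edgeR adjusted p = 0.123), with 0.329 to 2.57 CPM in KO and 2.32 to 4.33 CPM in WT.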
